A study of Homo sapiens with 12 samples.

Results

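The 9 genes DUSP1, DUSP2, DUSP4, DUSP5, DUSP6, DUSP7, DUSP8, DUSP10 and DUSP16 of the dual-specificity MAPK phosphatase family were followed in messenger RNA of Jurkat, a line grown from a human T-cell leukaemia. They were matched by symbol to Ensembl identifiers and are 9 of the 33704 genes with a read in any of 12 libraries. The set was selected on the measured change of DUSP8 (ENSG00000184545), which was higher in all 3 comparisons of the study, so the changes of DUSP8 are given as a description without a test.

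The libraries formed 6 groups of 2. Cells with a doxycycline-inducible shRNA directed at TAL1, a transcription factor of this leukaemia, were left uninduced (TAL1-control) or received doxycycline at 5 µg/ml for 72 h (TAL1-KD). Cells with an inducible shRNA directed at UTX, the histone demethylase encoded by KDM6A, were handled alike (UTX-control and UTX-KD). Both shRNA lines were grown in tetracycline-free serum with blasticidin and G418. Jurkat cells grown without these selection agents received DMSO (J4-control) or GSK-J4, a KDM6 demethylase inhibitor, at 2 µM (J4-2uM), also for 72 h. The uninduced cells received no doxycycline, so effects of doxycycline and of the shRNA cannot be told apart. The labels give 1 shRNA per target and do not say whether a line is a clone, or whether replicates were separate cultures. Each p-value therefore measures the spread between these libraries alone, and that spread may be technical.

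The libraries held 55524079 to 82534711 counted reads each. All 10 T-cell markers examined averaged at least 1 CPM (a gene's reads relative to all counted reads of its library, TMM-scaled over the 12 libraries), with a sum of 1927 to 4390 CPM. Myeloid, erythroid and epithelial markers each summed to at most 1.88 CPM, and HBB and HBA2 had no read. Of 5 B-cell markers, CD79A and CD79B averaged above 1 CPM, and that list summed to 38.4 to 88.3 CPM. TAL1 mRNA changed by -0.07 on the log2 scale in TAL1-KD (SE 0.09, edgeR quasi-likelihood test, adjusted p = 0.49) and KDM6A by -0.08 in UTX-KD (SE 0.04, adjusted p = 0.103). Neither target was shown to be lower in its own comparison. TAL1 mRNA was lower in UTX-KD (-0.12, SE 0.03, edgeR adjusted p = 0.00155) and with GSK-J4 (-0.66, SE 0.03, adjusted p = 6.02e-10), and KDM6A was higher with GSK-J4 (0.44, SE 0.04, adjusted p = 1.24e-07). These directions, like all others here, are those of the libraries as labelled. With counted reads alone as the scale, higher and lower calls over all genes were 3023 and 5497 for TAL1-KD, in place of 4424 and 4696. For UTX-KD they were then 6327 and 2693, in place of 4240 and 4269, and for GSK-J4 8652 and 4947, in place of 6794 and 6616. That scale moved the median of all genes to -0.17, 0.10 and 0.18.

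MAP kinases (ERK, JNK and p38) are switched on by phosphorylation of a threonine and a tyrosine in their activation loop, and dual-specificity phosphatases remove both phosphates. DUSP1, DUSP2, DUSP4 and DUSP5 are nuclear and are typically made as immediate early genes after a stimulus. DUSP6 and DUSP7 are cytoplasmic and prefer ERK, whereas DUSP8, DUSP10 and DUSP16 prefer the stress kinases JNK and p38. In T cells these enzymes limit signalling downstream of the antigen receptor.

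The DNA just before the start of DUSP8 is shown first because DUSP8 had the largest increases of the set, and next to it that of DUSP1, the other member that holds a full cAMP response element (TGACGTCA, a site bound by CREB and ATF factors). DUSP10 and DUSP16 are shown because they act on the same kinases as DUSP8 and rose in the same 3 comparisons. Each line gives the 250 bases before the start, 5′ to 3′ on the minus strand of GRCh38.p14, from RefSeq, with capitals marking TGACGTCA. The positions are chr11:1572272-1572521 for DUSP8, chr5:172771196-172771445 for DUSP1, chr1:221742090-221742339 for DUSP10 (the more upstream of 2 starts) and chr12:12562864-12563113 for DUSP16.
DUSP8: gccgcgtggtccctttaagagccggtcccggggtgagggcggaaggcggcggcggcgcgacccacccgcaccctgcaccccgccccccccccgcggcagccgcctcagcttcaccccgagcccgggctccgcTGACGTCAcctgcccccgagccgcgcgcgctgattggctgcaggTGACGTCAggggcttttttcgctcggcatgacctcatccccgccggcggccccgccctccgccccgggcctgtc
DUSP1: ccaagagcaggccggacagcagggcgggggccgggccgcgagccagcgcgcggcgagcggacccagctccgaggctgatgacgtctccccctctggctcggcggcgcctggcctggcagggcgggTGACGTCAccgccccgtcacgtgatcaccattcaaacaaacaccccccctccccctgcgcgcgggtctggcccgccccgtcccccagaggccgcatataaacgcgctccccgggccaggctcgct
DUSP10: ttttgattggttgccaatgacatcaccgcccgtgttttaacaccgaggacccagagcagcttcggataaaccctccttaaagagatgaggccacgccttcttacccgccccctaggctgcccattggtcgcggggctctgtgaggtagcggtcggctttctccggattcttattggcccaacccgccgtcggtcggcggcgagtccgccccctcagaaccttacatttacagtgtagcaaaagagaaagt
DUSP16: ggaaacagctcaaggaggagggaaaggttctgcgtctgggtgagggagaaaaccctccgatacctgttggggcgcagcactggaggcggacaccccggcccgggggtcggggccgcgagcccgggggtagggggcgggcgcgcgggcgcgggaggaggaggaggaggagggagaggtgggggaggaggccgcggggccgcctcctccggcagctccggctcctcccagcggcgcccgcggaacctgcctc

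The DUSP8 window held TGACGTCA at 2 places, 118 to 111 and 74 to 67 bases before the start, and the DUSP1 window held it once, 125 to 118 bases before the start. Of 35116 windows of the same length, 1.65% held this motif on either strand and 0.0541% (19 windows) held it at 2 or more places. The motif is a palindrome, so a match on both strands was counted once. RefSeq windows were found for 7 of the 9 members, 8 windows in all. DUSP4 and DUSP5 had no entry. The AP-1 motif TGANTCA, in 6.57% of all windows, the ATF4 element TGATGNAA (3.14%), the E-box CAGATG (12.2%) and the CArG box (1.16%) were in none of the 8. The NF-kB site by its usual consensus, in 9.96% of all windows, was in the DUSP7 window alone, and the GC box GGGCGG (42.6%) was in all except that of DUSP6. All motifs were searched on both strands, and a match is a description of the letters only.

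DUSP8 was scarce in every control group and higher in every treated group. The uninduced TAL1 line had 159 and 169 reads and the induced line 757 and 1085, or 2.26 and 2.64 against 13.8 and 19.4 CPM. The log2 fold change was 2.74, a 6.67-fold difference. In the UTX line the reads were 71 and 72 without doxycycline and 377 and 361 with it, or 0.885 and 1.25 against 5.23 and 5.24 CPM. This was a log2 fold change of 2.31, 4.94-fold. With DMSO the libraries had 93 and 123 reads and with GSK-J4 2774 and 2465, or 1.64 and 1.6 against 33.4 and 31.7 CPM. That log2 fold change was 4.34, 20.2-fold. Ordered from the top, the change of DUSP8 ranked 19 of 16829 genes in TAL1-KD, 18 of 16847 in UTX-KD and 15 of 17907 with GSK-J4. These ranks describe the same changes that chose the set. Because the libraries are of bulk RNA, more DUSP8 RNA per cell and more cells that express it cannot be told apart.

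Over the 6 groups, mean DUSP8 was lowest in UTX-control (1.07 ± 0.261 CPM, SD, n = 2), then J4-control (1.62 ± 0.0292) and TAL1-control (2.45 ± 0.272). It rose through UTX-KD (5.23 ± 0.00929) and TAL1-KD (16.6 ± 3.96) to J4-2uM (32.5 ± 1.2). No library of one group overlapped those of its neighbour in this order. The wide spread in TAL1-KD was shared by other genes. The log2 differences between its libraries had an SD of 0.227 over genes of at least 10 CPM, against 0.0804 in TAL1-control and at most 0.0798 in the other groups.

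**Figure D1:**
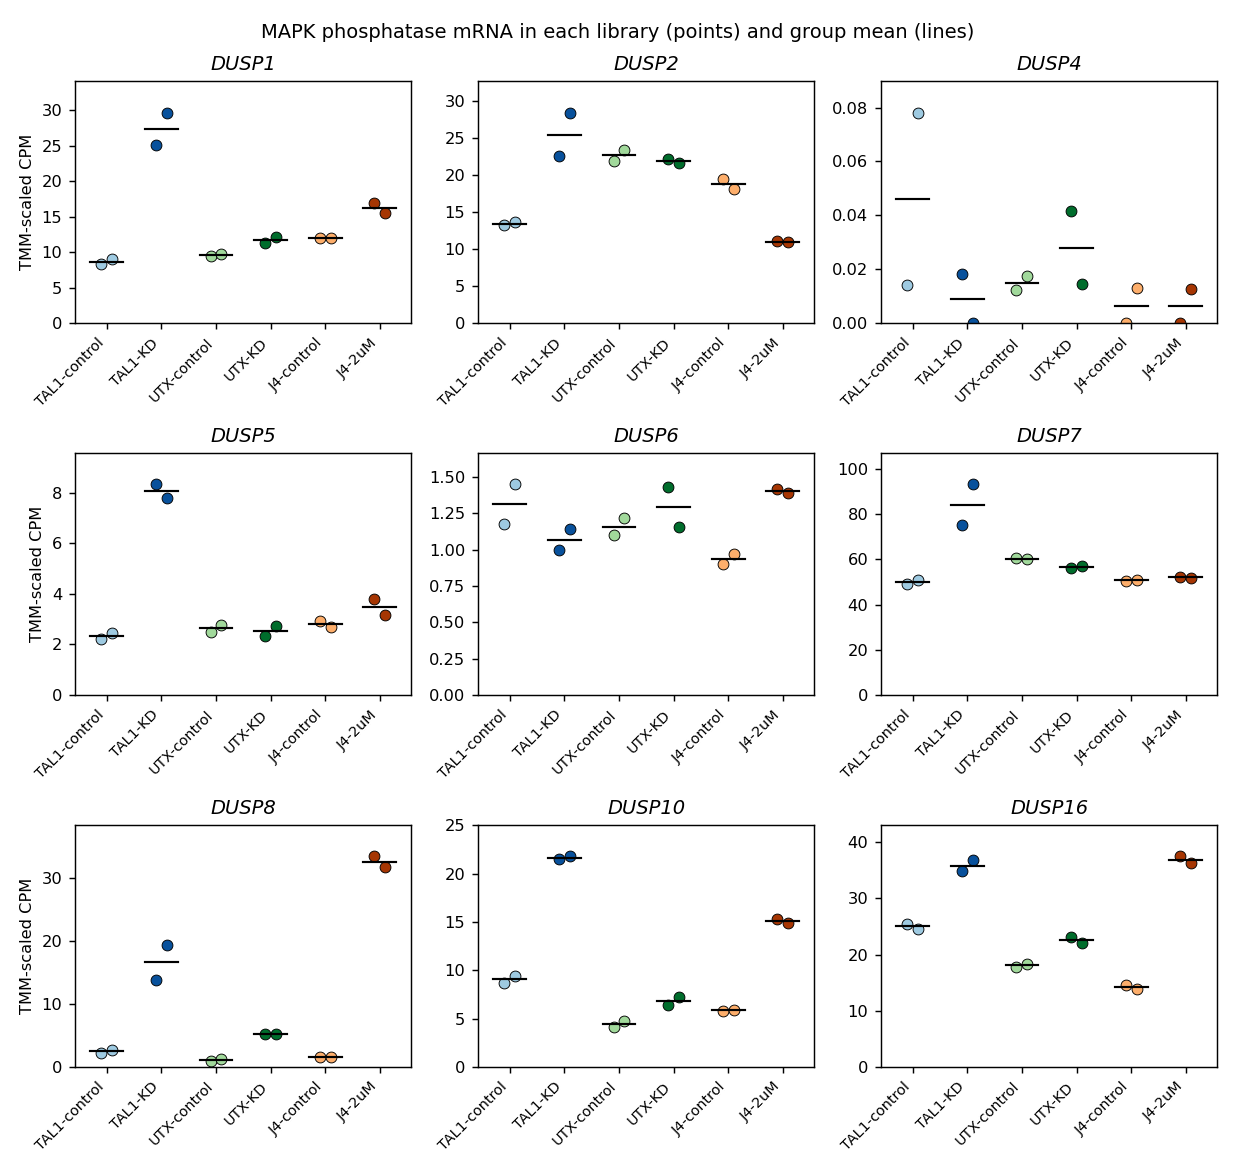
TMM-scaled CPM (y axis, linear from 0, own scale per gene) of the 9 members in the 6 groups (x axis); points are the 2 libraries of a group and lines the group mean. DUSP1, DUSP8, DUSP10 and DUSP16 are higher in each treated group than in its control, and DUSP4 stays below 0.1 CPM.

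DUSP8 has a processed pseudogene elsewhere in the genome, DUSP8P5, with 5782 reads over the 12 libraries against 8506 for DUSP8, and reads of the pair could be split by the counting. DUSP8P5, picked out after its values were seen, had 7.49 and 6.24 CPM in TAL1-control and 10.5 and 12.8 in TAL1-KD. It had 3.91 and 4.26 in UTX-control against 5.47 and 5.98 in UTX-KD, and 5.57 and 5.35 in J4-control against 8.46 and 9.80 in J4-2uM. Each treated pair lay above its controls, with log2 fold changes of 0.74, 0.47 and 0.75. No test is given for DUSP8P5, because its reads may be mixed with those of DUSP8. In all 3 control groups DUSP8P5 had more reads than DUSP8, and in UTX-KD too it had more, 807 against 738. It had fewer than DUSP8 in TAL1-KD, 1294 against 1842, and in J4-2uM, 1467 against 5239. The antisense gene KRTAP5-AS1, which overlaps DUSP8, had 44 reads in all.

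**Figure D2:**
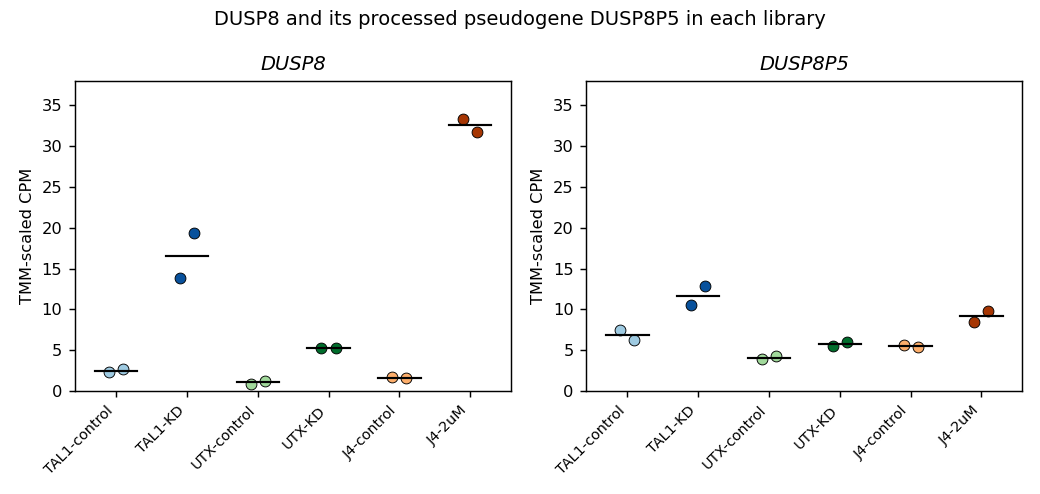
TMM-scaled CPM (y axis, the same linear scale in both panels) of DUSP8 and DUSP8P5 in the 6 groups (x axis); points are libraries and lines group means. With GSK-J4, DUSP8 reaches 31.7 to 33.4 CPM and DUSP8P5 8.46 to 9.80.

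Of the 8 members other than DUSP8, 6 were called in TAL1-KD by the edgeR quasi-likelihood test, where 54.2% of all genes tested were called. All 6 were higher, as were 26.3% of all genes, and 0 were lower (27.9%). In UTX-KD 4 were called (50.5% of all genes), 3 of them higher (25.2%) and 1 lower (25.3%). With GSK-J4 6 were called (74.9%), 5 of them higher (37.9%) and 1 lower (36.9%). DUSP4 was not tested in any comparison, and the median log2 fold change of the 7 others was 0.90, 0.15 and 0.45, beside -0.02, 0.01 and 0.01 over all genes tested. Libraries of the treated and control groups did not overlap for 7, 4 and 7 of the 8, against 81.1%, 74.0% and 87.1% of all genes, so separation of 2 against 2 libraries was common. Changes differed between TAL1-KD and UTX-KD for 5 of 7 members by the edgeR interaction test (50.1% of all genes), between TAL1-KD and GSK-J4 for 6 (53.9%) and between UTX-KD and GSK-J4 for 5 (58.4%). These counts describe 7 or 8 genes that were chosen with the results known.

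DUSP10 and DUSP16, which like DUSP8 prefer JNK and p38, rose in all 3 comparisons. DUSP10 (also called MKP5) had 8.70 and 9.41 CPM in TAL1-control and 21.5 and 21.8 in TAL1-KD (log2 fold change 1.24, SE 0.10, edgeR adjusted p = 0.000271). It had 4.17 and 4.77 CPM in UTX-control and 6.40 and 7.20 in UTX-KD (0.59, SE 0.09, adjusted p = 2.73e-05). With GSK-J4 it went from 5.83 and 5.91 to 15.3 and 14.9 CPM (1.37, SE 0.06, adjusted p = 4.14e-10). The groups did not overlap in any of the 3. The rise in the UTX-labelled comparison was smaller than in the TAL1-labelled one (difference 0.68, SE 0.14, edgeR interaction test, adjusted p = 0.00291) and smaller than with GSK-J4 (difference -0.78, SE 0.11, adjusted p = 8.86e-07). For TAL1-KD against GSK-J4 the difference was -0.10 with a 95% interval of -0.34 to 0.14 (adjusted p = 0.466).

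DUSP16 (MKP7), the closest relative of DUSP8, was the more abundant of the pair in the controls. It had 25.5 and 24.6 CPM in TAL1-control and 34.8 and 36.8 in TAL1-KD (log2 fold change 0.49, SE 0.09, edgeR adjusted p = 0.00277). Without TAL1-control replicate 2 that change was 0.47 with an adjusted p of 0.0507. It had 17.8 and 18.3 CPM in UTX-control against 23.1 and 22.1 in UTX-KD (0.31, SE 0.05, adjusted p = 4.41e-05). With DMSO it had 14.5 and 13.8 CPM and with GSK-J4 37.5 and 36.3 (1.39, SE 0.05, adjusted p = 2.09e-11). Treated libraries were above controls throughout. The rise with GSK-J4 was larger than that in TAL1-KD, by 0.87 (SE 0.09, adjusted p = 2.59e-05), and larger than that in UTX-KD, by 1.10 (SE 0.07, adjusted p = 1.16e-13).

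Among the nuclear phosphatases, DUSP1 rose in all 3 comparisons, and DUSP2 and DUSP5 differed between them in direction or in call. DUSP1 (MKP1) had 8.34 and 9.02 CPM in TAL1-control and 25.1 and 29.7 in TAL1-KD (log2 fold change 1.63, SE 0.12, edgeR adjusted p = 0.000186). In the UTX line it had 9.54 and 9.71 CPM against 11.3 and 12.2 (0.27, SE 0.06, adjusted p = 0.00177). With DMSO it had 12 CPM in both libraries and with GSK-J4 17.0 and 15.6 (0.45, SE 0.06, adjusted p = 1.14e-05). No groups overlapped. The rise in TAL1-KD exceeded that in UTX-KD by 1.40 (SE 0.13, adjusted p = 8.15e-05) and that with GSK-J4 by 1.22 (SE 0.13, adjusted p = 3.09e-05).

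DUSP2 (PAC1), first described in activated T cells, rose in TAL1-KD and fell with GSK-J4. It had 13.2 and 13.6 CPM in TAL1-control and 22.5 and 28.4 in TAL1-KD (log2 fold change 0.90, SE 0.13, edgeR adjusted p = 0.00119). The 4 libraries of the UTX line lay between 21.6 and 23.4 CPM and overlapped (-0.06, 95% interval -0.17 to 0.04, adjusted p = 0.286). With DMSO it had 19.5 and 18.1 CPM and with GSK-J4 11.1 and 10.9 (-0.76, SE 0.06, adjusted p = 4.42e-08). The change in TAL1-KD exceeded that with GSK-J4 by 1.70 (SE 0.15, adjusted p = 5.93e-06).

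DUSP5, a nuclear ERK phosphatase, had 2.20 and 2.45 CPM in TAL1-control and 8.33 and 7.81 in TAL1-KD (log2 fold change 1.77, SE 0.15, edgeR adjusted p = 0.000261). In the UTX line it had 2.5 and 2.77 CPM against 2.33 and 2.74, with overlapping groups (-0.07, 95% interval -0.32 to 0.18, adjusted p = 0.656). With GSK-J4 it went from 2.92 and 2.70 to 3.8 and 3.15 CPM (0.32, SE 0.12, adjusted p = 0.0235). DESeq2 gave this GSK-J4 change an adjusted p of 0.184, and without J4-2uM replicate 1 or J4-control replicate 2 edgeR gave 0.229 and 0.139. Its processed pseudogene DUSP5P1, also picked out after its values were seen, moved the other way by edgeR in TAL1-KD (-1.77, SE 0.22, adjusted p = 0.000793) and with GSK-J4 (-1.18, SE 0.14, adjusted p = 3.91e-06). DUSP5P1 had more reads than DUSP5 in TAL1-control (522 against 312), UTX-control (411 against 360), J4-control (493 against 374) and UTX-KD (370 against 357). It had fewer in TAL1-KD (128 against 894) and in J4-2uM (263 against 561). Reads of this pair too could be split by the counting, which was not tested.

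DUSP4, the fourth nuclear member, had 0 to 5 reads per library and did not pass the filter on low counts. In the 3 libraries without a read, 0 reads allow up to 0.0361 to 0.0536 CPM (the worth of 3 reads, counting error only). The highest value in any library was 0.0781 CPM, in TAL1-control. Changes of DUSP4 within levels this low could not be detected at this depth.

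The cytoplasmic ERK phosphatases DUSP7 and DUSP6 did not share a call in any comparison. DUSP7 (PYST2) was the member with the most reads in each group. It had 49.2 and 51.0 CPM in TAL1-control and 75.2 and 93.2 in TAL1-KD (log2 fold change 0.72, SE 0.11, edgeR adjusted p = 0.0015). In the UTX line it had 60.5 and 60.1 CPM against 56.2 and 57.1 (-0.11, SE 0.03, adjusted p = 0.0108). That call was lost without either UTX-control library (adjusted p = 0.105 and 0.067) in 1 fit over the 12 libraries (0.417) and with counted reads alone as the scale, where the change was -0.02. With GSK-J4 it had 52.3 and 51.9 CPM, against 50.6 and 50.8 with DMSO (0.05, 95% interval -0.03 to 0.12, adjusted p = 0.248); with counted reads alone it was called higher (0.22, adjusted p = 8.37e-05). The TAL1-KD change exceeded that in UTX-KD by 0.87 (SE 0.12, adjusted p = 0.000451).

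DUSP6 (MKP3), a feedback inhibitor of ERK, was low, with 51 to 118 reads per library. It had 1.18 and 1.45 CPM in TAL1-control and 1.00 and 1.14 in TAL1-KD (log2 fold change -0.31, 95% interval -0.82 to 0.19, edgeR adjusted p = 0.25). In the UTX line the values were 1.10 and 1.22 CPM against 1.43 and 1.16 and overlapped (0.15, 95% interval -0.20 to 0.50, adjusted p = 0.474). With GSK-J4 it went from 0.899 and 0.974 to 1.42 and 1.39 CPM (0.58, SE 0.16, adjusted p = 0.00431), and DESeq2 gave this change an adjusted p of 0.0969.

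**Figure D3:**
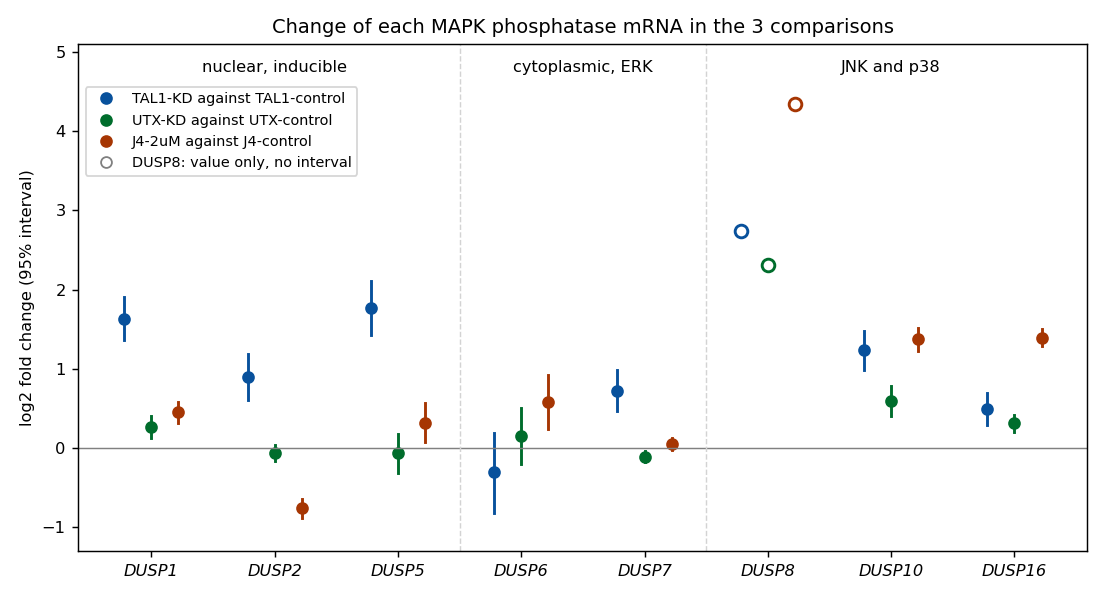
Log2 fold change (y axis) of the 8 members that passed the filter (x axis, ordered by location and preferred kinase) in the 3 comparisons; bars are 95% intervals and open circles are DUSP8, shown without one. In UTX-KD the changes of members other than DUSP8 stay between -0.11 and 0.59, whereas DUSP8 is at 2.31.

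Levels of different genes were compared per kilobase of exon. In J4-control the order was DUSP2 (9.73 ± 0.484 CPM per kb, SD, n = 2), DUSP7 (8.98 ± 0.0231), DUSP1 (5.94 ± 0.026), DUSP16 (2.47 ± 0.0936), DUSP10 (2.01 ± 0.0186), DUSP5 (1.08 ± 0.0605), DUSP8 (0.35 ± 0.00633) and DUSP6 (0.202 ± 0.0115). With GSK-J4 DUSP7 (9.23 ± 0.0499) came first, then DUSP1 (8.08 ± 0.476), DUSP8 (7.04 ± 0.259), DUSP16 (6.45 ± 0.149), DUSP2 (5.69 ± 0.0802) and DUSP10 (5.18 ± 0.105). Neighbours in these orders differed by more than their SD. Pseudogene reads were not included. In J4-control DUSP8P5 had 728 reads against 216 for DUSP8, and DUSP5P1 had 493 against 374 for DUSP5. If reads were split within these pairs, the places of DUSP8 and DUSP5 could change, which was not tested.

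Summed over the 9 members, the level per kb in the uninduced TAL1 line was 29.3 ± 0.854 CPM (SD, n = 2), against 62.2 ± 7.08 after doxycycline. It was 33.3 ± 0.899 and 35.9 ± 0.35 in the UTX line, and 30.8 ± 0.564 with DMSO and 43.3 ± 1.30 with GSK-J4. DUSP8, DUSP10 and DUSP16 together made up 27.3% ± 0.373 of the sum in TAL1-control and 27.8% ± 1.26 in TAL1-KD. Their share was 14.7% ± 0.4 in UTX-control and 20.7% ± 0.0146 in UTX-KD, and 15.7% ± 0.024 in J4-control and 43.1% ± 0.109 in J4-2uM. DUSP8 alone went from 1.14% to 16.3% of the sum with GSK-J4, and DUSP2 from 31.6% to 13.1%. In TAL1-KD the share of DUSP8, DUSP10 and DUSP16 differed from its control by less than the SD in TAL1-KD, while the sum was higher. The sum and the share of these 3 include DUSP8, whose rise chose the set, so part of any increase in them follows from that choice. From TAL1-control to TAL1-KD, DUSP8 went from 1.81% to 5.73%, DUSP10 from 10.6% to 12% and DUSP16 from 14.9% to 10.1%. With GSK-J4 DUSP10 went from 6.55% to 12% and DUSP16 from 8.04% to 14.9%. The shares of DUSP10 and DUSP16 were also higher in UTX-KD.

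**Figure D4:**
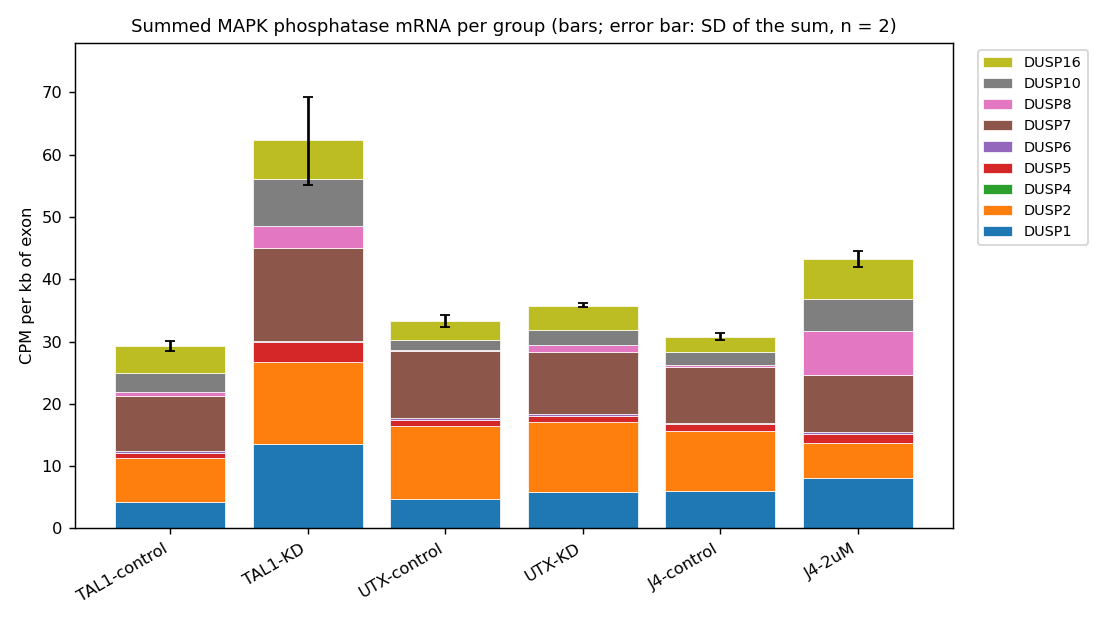
Summed CPM per kb of exon (y axis) of the 9 members in the 6 groups (x axis); segments are the members' group means and the error bar is the SD of the sum over 2 libraries. The sum is 62.2 in TAL1-KD and 43.3 in J4-2uM, where the DUSP8 segment is 7.04.

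The genes whose log2 CPM followed DUSP8 most closely over the 12 libraries, of 12962 compared, were the pseudogene CIDECP (Pearson r 0.991), BCL3, a regulator of NF-kB (0.987), IDUA, a lysosomal enzyme (0.985), CREBRF, which acts on CREB3 factors (0.983), and EXOC4, an exocyst subunit (0.983). BCL3 changed by 2.32, 2.00 and 3.73 on the log2 scale in TAL1-KD, UTX-KD and J4-2uM, and EXOC4 by 0.26, 0.25 and 0.64, so a like pattern did not mean a like size. Within the family r with DUSP8 was 0.897 for DUSP16, 0.881 for DUSP10, 0.762 for DUSP1 and 0.608 for DUSP5. It was 0.404 for DUSP6, 0.332 for DUSP7 and -0.30 for DUSP2. These values describe 12 points that share their libraries and 3 control pairs.

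Among other phosphatases of the pathway, PTPN7, a tyrosine phosphatase of ERK and p38 in blood cells, was lower in all 3 comparisons by edgeR, with log2 fold changes of -0.58 (SE 0.08, adjusted p = 0.000918), -0.16 (SE 0.03, adjusted p = 0.000162) and -0.47 (SE 0.03, adjusted p = 1.9e-08). DUSP9, the remaining active enzyme of the family, had at most 5 reads per library in both shRNA lines. In the cells of the GSK-J4 experiment it rose from 0.768 ± 0.0893 to 1.19 ± 0.00293 CPM (0.62, SE 0.17, adjusted p = 0.00511). The inactive relative STYXL1 fell in TAL1-KD (-0.49) and with GSK-J4 (-0.54). Of 15 atypical dual-specificity phosphatases 9 were tested. In TAL1-KD 1 rose and 2 fell (26.3% and 27.9% of all genes), in UTX-KD 3 rose and 1 fell (25.2% and 25.3%), and with GSK-J4 4 rose and 3 fell (37.9% and 36.9%). DUSP12 fell in TAL1-KD (-0.48, SE 0.09) and rose with GSK-J4 (0.62, SE 0.04), where DUSP22, a regulator of JNK signalling, also rose (0.54, SE 0.04).

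The MAP kinases, on which the phosphatases act, moved both ways. Of 12 MAP kinases tested 4 rose and 2 fell in TAL1-KD (26.3% and 27.9% of all genes), with MAPK6 at 0.68 (SE 0.08) and MAPK3, which encodes ERK1, at 0.54 (SE 0.12). In UTX-KD 2 rose and 4 fell (25.2% and 25.3%). MAPK14, the main p38, fell there by 0.15 (SE 0.03) on the log2 scale, and MAPK11, another p38, rose by 0.34 (SE 0.05). With GSK-J4 6 of 13 rose and 2 fell (37.9% and 36.9%). MAPK11 rose with GSK-J4 by 1.28 (SE 0.04, edgeR adjusted p = 2.22e-11) from 29.2 to 70.3 CPM, and the JNK gene MAPK9 by 0.27 (SE 0.03). MAPK9 fell in TAL1-KD (-0.40, SE 0.07).

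Of the 7 kinases that phosphorylate MAP kinases, 3 rose and 1 fell in TAL1-KD (26.3% and 27.9% of all genes), with the p38 activator MAP2K3 at 0.78 (SE 0.09) and MAP2K5, which acts on ERK5, at -0.76 (SE 0.09). In UTX-KD 2 rose and 4 fell (25.2% and 25.3%), among them MAP2K3 (-0.31) and MAP2K6 (-0.59), both p38 activators. With GSK-J4 1 rose and 3 fell (37.9% and 36.9%), the latter being the JNK activator MAP2K4 (-0.43), MAP2K6 (-0.84) and MAP2K3 (-0.24). One step further up, 7 of 23 kinases rose and 3 fell in TAL1-KD, 6 rose and 7 fell in UTX-KD, and 15 rose and 7 fell with GSK-J4, beside the same shares of all genes. The counts in TAL1-KD and UTX-KD of genes that rose were near those shares. MAP3K10, a mixed-lineage kinase upstream of JNK, rose by 0.90 (SE 0.04) with GSK-J4 and by 0.32 (SE 0.04) in UTX-KD. MAP3K20 fell in TAL1-KD (-0.75, SE 0.1) and in UTX-KD (-0.31, SE 0.03). MAP3K8 rose in TAL1-KD (0.83, SE 0.11), where the stress kinase MAP3K5 fell (-0.80, SE 0.11).

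Of 5 scaffolds of the JNK and p38 modules, 4 rose and 1 fell with GSK-J4, where 37.9% of all genes rose and 36.9% fell. MAPK8IP1, a scaffold that ties JNK to its activators, rose by 1.51 (SE 0.07, adjusted p = 6.05e-10) from 5.01 to 14.2 CPM. MAPK8IP2 rose by 1.91 (SE 0.14) and MAPK8IP3 by 0.73 (SE 0.04). MAPK8IP3 also rose in TAL1-KD (0.59, SE 0.11) and UTX-KD (0.30, SE 0.03). In TAL1-KD 1 rose and 1 fell (26.3% and 27.9% of all genes) and in UTX-KD 2 rose and 1 fell (25.2% and 25.3%), SH3RF1 being lower in both (-0.84 and -0.34).

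Kinases and genes downstream of MAP kinases also held calls in both directions. Of 10 MAPK-activated kinases 3 rose and 2 fell in TAL1-KD (26.3% and 27.9% of all genes), 2 rose and 3 fell in UTX-KD (25.2% and 25.3%), and 3 rose and 3 fell with GSK-J4 (37.9% and 36.9%), which is near the shares of all genes. MAPKAPK2, the main p38 effector kinase, rose by 1.01 (SE 0.11) in TAL1-KD from 159 to 325 CPM, RPS6KA2 by 1.45 (SE 0.08) in UTX-KD, and MAPKAPK3 fell with GSK-J4 (-0.71, SE 0.03). Of the ERK feedback and output genes 3 of 10 rose and 1 fell in TAL1-KD, 2 rose and 2 fell in UTX-KD, and 5 of 11 rose and 4 fell with GSK-J4, beside the same shares of all genes. IER3, an early response gene, rose in TAL1-KD (1.56, SE 0.09) and with GSK-J4 (0.96, SE 0.06). The feedback inhibitor SPRY4 fell in TAL1-KD (-1.51, SE 0.21), where SPRY1 rose (0.38, SE 0.12). SPRY1 fell in UTX-KD (-0.54, SE 0.06). With GSK-J4 SPRED2 fell (-0.70, SE 0.04), while PHLDA1 rose (1.56, SE 0.10). Over all 9 lists, 22 of 78 genes tested were higher and 14 lower in TAL1-KD (26.3% and 27.9% of all genes). In UTX-KD 19 of 78 were higher and 23 lower (25.2% and 25.3%). With GSK-J4 39 of 81 were higher and 25 lower (37.9% and 36.9%). The share that was lower in TAL1-KD was below that of all genes. With GSK-J4 the share that was higher was above it and the share that was lower below it. The other totals were near the shares of all genes, and none of these contrasts was tested.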

How the data were processed

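Stranded mRNA libraries of Jurkat cells were sequenced. The submitters' processing notes name HTSeq 0.6.1p1, DESeq2, TopHat2 2.0.12 and the build hg19; the annotation, strand setting and handling of reads with several positions are not given in the sources used here. The authors deposited 1 table per comparison with raw read counts per gene for 4 libraries, without normalization.

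From these counts, with R 4.3.3, genes were filtered by filterByExpr, scaled by TMM and fitted per comparison on its 4 libraries with the two-sided quasi-likelihood test of edgeR 4.0.16. The Benjamini-Hochberg adjustment was over all genes tested, with 0.05 as the threshold, and the SE was the change over the root of F. Differences between comparisons were interaction terms over 8 libraries. Printed CPM were scaled over all 12 libraries, and exon lengths came from GENCODE 29. DESeq2 1.42.0 was an alternative. The procedure was tested on simulated data.

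The members, the 9 pathway lists and the 5 marker lists were chosen with earlier results of these data known. Named genes were all members, up to 3 called genes per list and comparison with the smallest adjusted p, of which some are not described, and the 5 genes most correlated with DUSP8 over the 12 libraries (log2 of CPM plus 0.01, mean of at least 1 CPM). Of 33704 identifiers 31913 matched a GENCODE symbol. No hg19 annotation was used here, so gene coordinates in that build are not given. The listed genes DUSP14, DUSP21, DUSP29 and RPS6KA6 had no entry under the matched identifier. Same-numbered libraries deviated with a correlation of 0.187 in the TAL1-labelled, -0.162 in the UTX-labelled and -0.083 in the GSK-J4 comparison, and the labels give no shared batch, so no pairing was assumed.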

Additional observations from a re-analysis of the deposited data

Results flagged for a closer look

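Both shRNA lines received the same doxycycline treatment, and 5 members changed differently in them by the edgeR interaction test. The log2 change in TAL1-KD exceeded that in UTX-KD by 1.40 for DUSP1, 1.00 for DUSP2, 1.88 for DUSP5, 0.87 for DUSP7 and 0.68 for DUSP10, with adjusted p-values of 8.15e-05, 0.000464, 8.21e-05, 0.000451 and 0.00291. Of all genes tested 50.1% differed in this way. For DUSP16 the difference was 0.22 (adjusted p = 0.0658) and for DUSP6 -0.43 (adjusted p = 0.204). The lines, their shRNAs and their libraries cannot be told apart as sources of these differences.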

How the results depend on the processing

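The calls of DUSP1, DUSP2 and DUSP10 within each comparison were the same under every alternative run. Among alternative values for the members with a test, 9 lost the call, 1 gained it and 4 changed sign, and 2 values of DUSP8, which has no test, moved. In TAL1-KD, leaving out 1 library gave 2431 to 5869 genes higher and 3094 to 6083 lower, and 5 to 6 members higher. The fewest genes were called without TAL1-control replicate 1. Dropping TAL1-control replicate 2 gave 2657 genes higher and the 5 members, DUSP16 being lost. In UTX-KD the DESeq2 Wald test called 2801 genes higher, counted reads alone 2693 lower, and 1 fit over the 12 libraries 2446 lower. The members lower in UTX-KD numbered 0 under the last of these and with counted reads alone, and 0 to 1 when 1 library was left out. With counted reads alone DUSP2 and DUSP5 changed by 0.0276 and 0.0218 in UTX-KD, and without UTX-KD replicate 1 DUSP5 and DUSP6 changed by 0.042 and -0.0096, against -0.1905 and 0.2916 without UTX-KD replicate 2, none of them called. With GSK-J4 DESeq2 called 3 members higher. Members that differed between UTX-KD and GSK-J4 numbered 3 without a filter and 3 in 1 fit over the 12 libraries, where DUSP5 and DUSP7 were lost. The DUSP5 difference was also lost without UTX-control replicate 2, UTX-KD replicate 1, J4-control replicate 2 or J4-2uM replicate 1 (adjusted p of 0.138, 0.219, 0.165 and 0.256). The causes were not tested. The settings with counted reads alone and with crossed replicate numbers were chosen after seeing the data. With the replicate number as a block, 4631 genes were higher and 5130 lower in TAL1-KD, and it changed no call of a member; with crossed numbers 4371 were higher and 4434 lower in UTX-KD. Depth limits DUSP4, which could not be tested, and DUSP6.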
